A study of Mus musculus with 12 samples.

Results

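H3K9ac peaks were examined at 10 genes of the MHC class I pathway, out of 21911 protein-coding genes of the mouse annotation (GENCODE M21, mm10). The 10 genes were given by name: the classical class I heavy chain genes H2-K1 and H2-D1, the Qa and T region heavy chain genes H2-Q4, H2-Q6, H2-Q7, H2-Q10 and H2-T23, the light chain gene B2m, the peptide transporter gene Tap1 and the immunoproteasome gene Psmb8. A peak belonged to a gene when it overlapped the gene body or the stretch 5 kb either side of the annotated start by at least 1 bp, and this stretch is called the gene window. All genes but B2m, which is on chromosome 2, lie in the H2 complex on chromosome 17.

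H3K9ac, an acetyl mark on histone H3 that is found at active promoters and enhancers, was mapped by ChIP-seq in adult mouse liver. The parental strains were C57BL/6J (B6, from which the reference genome was made) and MSM/Ms (MSM, an inbred line of Japanese wild mouse origin), with 2 libraries each. Reciprocal F1 hybrids had 1 library per cross, titled BM and MB. From the order of the letters, F1 BM was taken to have the B6 dam and F1 MB the MSM dam. No mouse was treated, and 6 input libraries of the same groups were not analysed here. The question put to these genes was whether their acetylation differed between the parental strains and how the reciprocal hybrids compared with the parents.

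Class I molecules carry peptides made inside a cell to its surface, where cytotoxic T cells and natural killer cells read them. A polymorphic heavy chain pairs with the light chain beta 2-microglobulin, peptides are cut by the proteasome, and a transporter brings them into the endoplasmic reticulum for loading. The H2 heavy chain genes arose by duplication, differ strongly between mouse strains and resemble each other in sequence, so reads of one gene or strain may be lost or placed at another copy when they are mapped to the B6 genome.

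The lists differed in length, which touches every value below. The deposited lists held 22968 and 11619 peaks for B6, 17310 and 17584 for MSM, 20173 for F1 BM and 13235 for F1 MB, and covered 16.0, 6.28, 9.66, 9.69, 12.3 and 7.46 Mb. They hold no read counts, the depth of sequencing was not used here, and a missing peak cannot be told from one too weak to be called. Of 8 hepatocyte marker genes, 7 had a peak within 1 kb of the start in all 6 libraries. None of 7 Kupffer cell markers had one in any library, whereas 4, 0, 2, 4, 5 and 0 of 6 endothelial markers had one in B6 replicate 1, B6 replicate 2, MSM replicate 1, MSM replicate 2, F1 BM and F1 MB. Of 5 stellate cell markers 1 had a start peak, in F1 BM alone. Of 8 lymphocyte and 4 cholangiocyte markers 1 each had one, in B6 replicate 1 alone. In tissue chromatin, fewer cells of a type and less acetylation per cell cannot be told apart.

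The bases just before the start are shown for 5 heavy chain genes and for B2m, because the heavy chain copies resemble each other. The peaks described below lay mostly behind these bases. H2-D1 and H2-T23, which also differ between strains below, are not printed. They are 200 bases from RefSeq GRCm38.p6 that end just before the annotated start, 5′ to 3′ on the strand of the gene. For B2m, whose RefSeq start lies 1 base behind the GENCODE start, they end before the GENCODE start. All 10 genes were matched to the RefSeq table by symbol. Capitals mark, on either strand, the NF-kB core letters GGGATTCCC, the X2 box letters TGACGC, the CCAAT box, and the interferon-stimulated response element GAAANNGAAA. Coordinates are chr17:34000348-34000547 (minus strand) for H2-K1 and chr17:35379417-35379616, chr17:35424650-35424849, chr17:35438955-35439154, chr17:35469889-35470088 and chr2:122147486-122147685 (plus strand) for the others.
H2-K1: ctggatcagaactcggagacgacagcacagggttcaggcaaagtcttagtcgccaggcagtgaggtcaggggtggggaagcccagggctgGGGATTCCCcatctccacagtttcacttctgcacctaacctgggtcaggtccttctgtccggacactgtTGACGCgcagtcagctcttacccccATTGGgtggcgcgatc
H2-Q4: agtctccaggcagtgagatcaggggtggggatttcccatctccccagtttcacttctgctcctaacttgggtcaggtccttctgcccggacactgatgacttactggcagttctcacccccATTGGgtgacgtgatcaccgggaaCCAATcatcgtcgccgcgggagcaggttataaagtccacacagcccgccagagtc
H2-Q6: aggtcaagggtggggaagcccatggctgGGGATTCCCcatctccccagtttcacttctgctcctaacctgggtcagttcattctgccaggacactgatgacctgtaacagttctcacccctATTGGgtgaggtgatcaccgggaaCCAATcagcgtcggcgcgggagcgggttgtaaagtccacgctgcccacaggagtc
H2-Q7: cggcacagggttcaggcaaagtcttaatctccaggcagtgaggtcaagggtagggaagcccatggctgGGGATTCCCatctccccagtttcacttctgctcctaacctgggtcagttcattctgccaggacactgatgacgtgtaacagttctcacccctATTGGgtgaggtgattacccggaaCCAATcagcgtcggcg
H2-Q10: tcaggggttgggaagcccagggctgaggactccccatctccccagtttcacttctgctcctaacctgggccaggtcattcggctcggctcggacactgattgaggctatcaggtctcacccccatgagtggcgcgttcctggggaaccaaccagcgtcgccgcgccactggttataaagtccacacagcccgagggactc
B2m: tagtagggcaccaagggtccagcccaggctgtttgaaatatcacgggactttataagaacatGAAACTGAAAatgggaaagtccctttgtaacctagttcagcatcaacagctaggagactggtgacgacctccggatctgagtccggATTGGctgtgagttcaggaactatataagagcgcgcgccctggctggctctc

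Motif letters were searched on both strands in the 250 bases before the RefSeq start, for the 10 genes and for all 27025 promoters of the RefSeq table. The exact NF-kB core letters were found at 4 of the 10 genes, H2-K1, H2-D1, H2-Q6 and H2-Q7, and at 0.311% of all promoters. These 4 are heavy chain genes that arose by duplication, so their matches are not independent. The printed H2-Q4 bases hold the near match ggggatttccc, which was not counted. The letters of the interferon-stimulated response element were found at H2-T23 and B2m, against 3.05% of all promoters. The X2 box letters were found at H2-K1 and H2-D1, against 6.18% of all promoters. CCAAT was found at 8 of the 10 genes, all but H2-Q10 and Psmb8, against 34.5% of all promoters. The TATA box letters TATAAA, which are not in capitals, were found at 5 genes against 13.0%, and the GC box letters GGGCGG at Tap1 alone against 33.1%. No matches of different motifs overlapped at these genes. For H2-D1, H2-T23 and Psmb8 the RefSeq start lies 364, 154 and 474 bp downstream of the GENCODE start, so their searched bases lie wholly (H2-D1 and Psmb8) or in part (H2-T23) inside the GENCODE gene. A match is a description of letters and not a bound site. Only these exact letters were searched, so a gene without a match may hold a variant of the element. All the printed heavy chain sequences, for example, share the unmarked letters agtttcacttct, which were not among those searched.

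Every one of the 10 genes had a peak within 1 kb of the start in at least 1 library, against 45.8% of all protein-coding genes, but at H2-Q6 and H2-Q7 in B6 replicate 1 alone, the longest list. A start peak in all 6 libraries was found at 4 genes, H2-D1, H2-Q10, H2-T23 and B2m. Among all protein-coding genes, 23.6% had a start peak in all 6 libraries. B6 replicate 1 had start peaks at 10 of the 10 genes, B6 replicate 2 at 7, both MSM libraries at 6, F1 BM at 7 and F1 MB at 6. Over all protein-coding genes the shares with a start peak were 44.2% and 27.9% in the B6 libraries, 35.5% and 36.2% in the MSM libraries, 35.3% in F1 BM and 31.7% in F1 MB. Both the highest number and the highest share were in the longest list. H2-K1 and H2-Q4 were covered by peaks in both B6 libraries and in neither MSM library. No gene showed the opposite.

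Peaks lay mostly behind the starts. Over 60 pairs of gene and library, 42 had a peak in the window, and the summit of the strongest one was downstream of the start in 40 pairs, between 203 and 922 bp, and upstream in 2 pairs, both at Tap1 in B6. For comparison, among all genes with a start peak the strongest start peak had its summit downstream in 74.6% to 79.3% of genes, depending on the library.

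**Figure D1:**
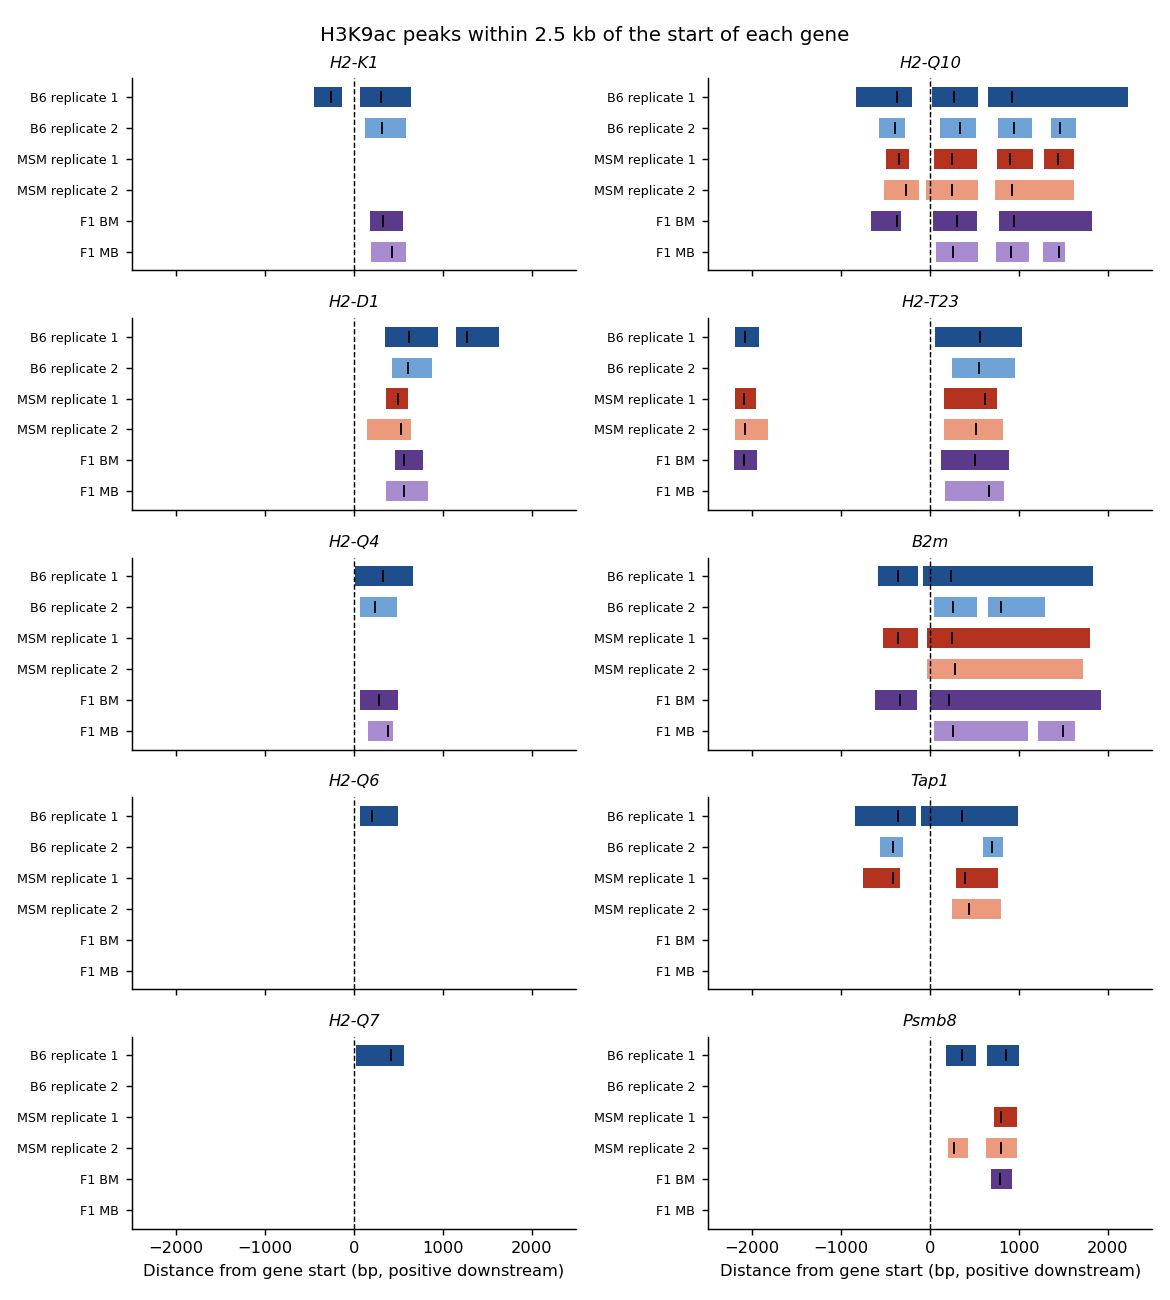
H3K9ac peaks within 2.5 kb of the start of each of the 10 genes, by library. The x axis is the distance from the annotated start in bp, positive in the direction of transcription; bars are peaks, black ticks are summits, the dashed line is the start. H2-K1 and H2-Q4 have bars in the B6 and F1 rows and none in the MSM rows.

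H2-K1 encodes the classical heavy chain K, which presents peptides to cytotoxic T cells. The gene lies on the minus strand at chr17:33996017-34000347. In B6 replicate 1 peaks covered 887 bp of its window and in B6 replicate 2 463 bp, while both MSM lists had 0 bp. F1 BM had 370 bp and F1 MB 403 bp. The strongest peak had a fold enrichment over background, as the peak caller wrote it, of 10.45 in B6 replicate 1, 6.75 in the other B6 library, 4.29 in F1 BM and 5.27 in F1 MB. Among all folds of its own list this peak was at percentiles 89.9 and 86.9 in B6, 74.4 in F1 BM and 65.0 in F1 MB. It spanned chr17:33999710-34000274 in B6 replicate 1, and its summit fell in a coding exon, 305 bp behind the start, in that library and 313 to 424 bp behind it in the others. The nearest MSM peak lay 23.9 kb from the start in both MSM libraries.

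The strains did not overlap at H2-K1, and both hybrids had the peak. The MSM minus B6 difference in covered length was −675 bp, with a pooled within-strain SD of 212 bp (two-sided exact permutation p = 0.33, n = 2 per strain). With 2 libraries against 2, this is the smallest p the design allows, so no test of a single gene here could pass 0.05. The replicates of a strain were livers of separate mice.

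H2-D1 encodes the other classical heavy chain of this set, D, at chr17:35262730-35267499 on the plus strand. Peaks covered 1776 and 446 bp in B6 and 244 and 500 bp in MSM, with 315 bp in F1 BM and 472 bp in F1 MB. The covered lengths of the strains overlapped (difference −739 bp, pooled within-strain SD 677 bp, two-sided exact permutation p = 0.667, n = 2 per strain). Both B6 values were above both MSM values, however, with the same number of peaks in each list (−872.5 bp), the same covered length (−522 bp) or a −log10 q of at least 5 (−1111 bp). Without B6 replicate 1 the difference was −74 bp and without B6 replicate 2 −1404 bp. B6 replicate 1 alone had a second peak behind the start and an upstream one at chr17:35257829-35258529, with its summit 4513 bp before the start.

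At H2-D1 the peak was present in both strains but ranked lower within the MSM lists. Because the caller's fold depends on the library, the strongest peak of a gene was also given as its percentile among all folds of its own list. At H2-D1 this was 86.6 and 78.4 in B6, 50.3 and 14.0 in MSM, 48.7 in F1 BM and 76.9 in F1 MB. Both B6 values were above both MSM values (difference −50.3 percentile points, pooled within-strain SD 18.6, two-sided exact permutation p = 0.33, n = 2 per strain). The difference was −32.2 without MSM replicate 2 and −68.5 without MSM replicate 1. The lists differ in length, so they were also limited to the same number of peaks, strongest −log10 q first, an alternative chosen after seeing the data. B6 was then at percentiles 73.6 and 78.4 at H2-D1 and neither MSM list kept a peak there. All 6 strongest peaks had the summit in an intron, 500 to 614 bp behind the start.

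H2-Q4 encodes a Qa region class I chain and lies at chr17:35379617-35385290 on the plus strand. Its window was covered over 654 and 419 bp in B6 and 0 bp in both MSM libraries, with 430 bp in F1 BM and 281 bp in F1 MB. The folds were 8.36 and 3.99 in B6, 5.65 in F1 BM and 4.25 in F1 MB. Within their own lists these were at percentiles 80.6 and 34.0 in B6, 89.7 in F1 BM and 40.9 in F1 MB. By rank F1 BM was thus above both B6 libraries. As at H2-K1, the strains did not overlap and both hybrids had a peak (difference −536.5 bp, pooled within-strain SD 118 bp, two-sided exact permutation p = 0.33, n = 2 per strain). The B6 replicate 2 peak was a weak one, at percentile 34.0 of the folds of its list. When each list was cut to the same covered length, strongest peaks first, the difference was −209.5 bp and the strains overlapped (exact permutation p = 1). The nearest MSM peak lay 90.0 kb from the start in MSM replicate 1 and 89.9 kb in MSM replicate 2. All 4 summits at H2-Q4 were in a coding exon, 241 to 378 bp behind the start.

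H2-K1 and H2-Q4 were the 2 of 10 genes whose covered length was higher in both B6 libraries than in both MSM libraries. The background share for this order was 11.6%, counted over 11446 genes with a window peak in at least 1 parental library. The opposite order was seen at 0 of the 10 genes, against 4.97% of all genes. The background also leaned to B6 with the same number of peaks in each list, but not at the same covered length. With the same number of peaks in each list, 3 of the 10 genes were higher in B6 and 0 in MSM, against 19.3% and 8.87% of all genes. At the same covered length, 3 were higher in B6 and 0 in MSM, against 15.6% and 17.5%. The same 2 genes had a start peak in both B6 libraries and in neither MSM library, which held for 1.86% of 9941 genes with a start peak in a parent, and the opposite held for 0.644%. Of the 185 genes with this B6 pattern, 27.6% had a start peak in both hybrids, as H2-K1 and H2-Q4 did.

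The count rested on both B6 libraries being used. Without B6 replicate 1, 2 genes were higher in B6 and 5 higher in MSM (H2-Q10, H2-T23, B2m, Tap1 and Psmb8), where 61.2% of all genes were higher in MSM. Without B6 replicate 2, all 10 genes were higher in B6, where 84.2% of all genes were. H2-K1 and H2-Q4 were higher in B6 in both cases.

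**Figure D2:**
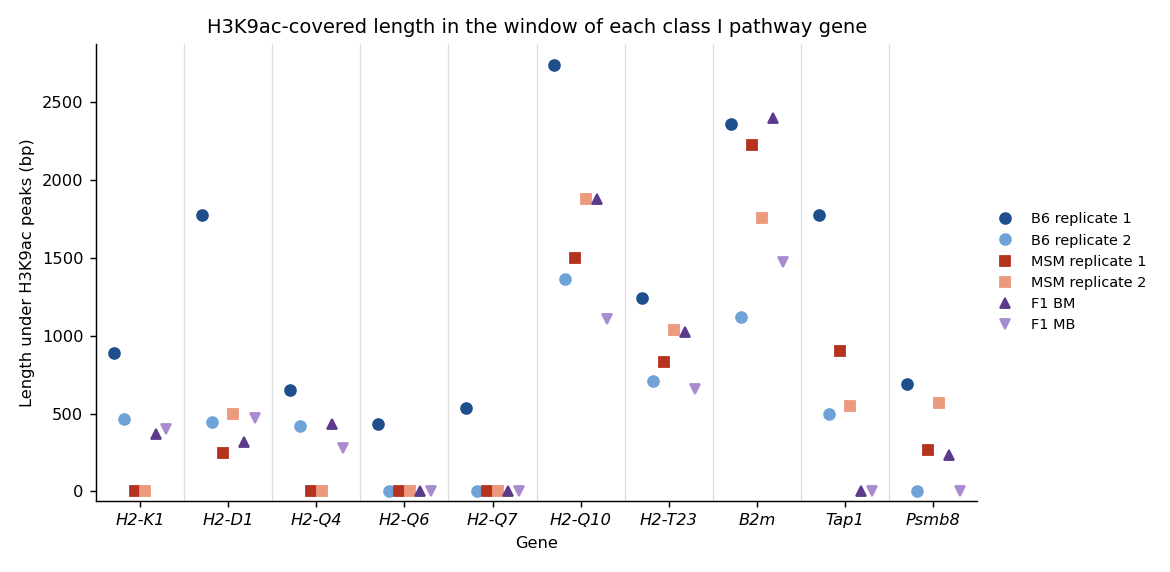
Length under H3K9ac peaks in the window of each gene (y axis, bp), 1 point per library, with circles for B6, squares for MSM and triangles for the F1 libraries. The 2 B6 points lie above both MSM points, which are at 0 bp, for H2-K1 and H2-Q4, and B6 replicate 1 is the highest parental point for every gene.

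H2-Q6 and H2-Q7, which encode Qa-2 antigens and are neighbours of nearly the same sequence, had a peak in B6 replicate 1 alone. It covered 434 bp at H2-Q6 (gene at chr17:35424850-35430055, plus strand) with a fold of 4.98, and 533 bp at H2-Q7 (gene at chr17:35439155-35443773, plus strand) with a fold of 3.93. Neither the other B6 library nor any MSM or F1 library had a peak within 5 kb of either start. The peaks nearest to H2-Q6 in those libraries were 44579 to 44796 bp away and those nearest to H2-Q7 30274 to 30995 bp. The B6 libraries therefore differed from each other as much as B6 replicate 1 differed from MSM (two-sided exact permutation p = 1 for each gene, n = 2 per strain).

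H2-Q10 encodes a secreted class I chain made in liver, at chr17:35470089-35474563 on the plus strand. It was the most widely acetylated heavy chain gene of the set in every library. Its window was covered over 2736 and 1364 bp in B6, 1498 and 1876 bp in MSM, 1877 bp in F1 BM and 1104 bp in F1 MB. The strongest folds were 15.7 and 7.72 in B6, 8.97 and 14.6 in MSM, 6.44 in F1 BM and 9.41 in F1 MB, which put it at percentiles 98.3, 92.7, 91.6, 99.0, 93.6 and 95.8 of the 6 lists. The order of the libraries crossed the strains, with a difference of −363 bp and a pooled SD within strains of 712 bp (two-sided exact permutation p = 1, n = 2 per strain).

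The peaks of H2-Q10 formed a row with a gap at the start. In all libraries but F1 MB an upstream peak ended between 121 and 323 bp before the start. A second peak followed from just behind the start, or 41 bp before it in MSM replicate 2, to 520 to 543 bp behind it, and the next one began 648 to 779 bp behind it. All 3 of these peaks were called in both libraries of both strains. In the printed bases H2-Q10 holds none of the exact letters marked by capitals in the other heavy chain genes. It holds TATAAA 28 to 23 bases before the start.

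H2-T23 encodes Qa-1, whose peptide-loaded form is read by inhibitory receptors of natural killer cells, and lies at chr17:36029773-36032855 on the minus strand. Peaks covered 1245 and 712 bp in B6, 832 and 1035 bp in MSM, 1023 bp in F1 BM and 656 bp in F1 MB. The covered lengths of the strains overlapped (difference −45 bp, pooled within-strain SD 285 bp, two-sided exact permutation p = 1, n = 2 per strain). Both B6 values were above both MSM values at the same covered length in each list (−845.5 bp) and within the gene body only (−218 bp), while the sign turned with the same number of peaks (88 bp). The strongest peak again ranked lower within the MSM lists, at percentiles 47.1 and 37.8, against 85.6 and 87.5 in B6. With the same number of peaks in each list it was at 71.6 and 87.5 in B6 and at 23.2 and 12.4 in MSM, and at the same covered length neither MSM list kept a peak. The main difference of −44.1 percentile points exceeded the spread within strains, a pooled SD of 4.74 points (two-sided exact permutation p = 0.33, n = 2 per strain).

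The hybrids split at H2-T23. F1 BM was at percentile 84.8, close to B6, and F1 MB at 35.6, below both MSM values, with 1 library per cross and so no replicate error. With the same number of peaks in each list F1 BM was at 73.6, and F1 MB at 26.6 was above both MSM values, 23.2 and 12.4. At the same covered length F1 BM was at 51.8, between the B6 values of 31.9 and 87.5, and F1 MB at 15.7. A second, separate peak about 2 kb upstream was called in B6 replicate 1, both MSM libraries and F1 BM, with summits 2083 to 2092 bp before the start. It was not called in B6 replicate 2 or F1 MB, which have the shortest lists.

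The rank of the strongest peak could be compared over 6706 genes that had a window peak in all 4 parental libraries, 5 of the 10 genes among them. Both B6 values were above both MSM values at 2 of these 5, H2-D1 and H2-T23, against 18.4% of all genes. The opposite order was seen at 0 of 5, against 14.3%. The median difference over all genes was 0.0532 percentile points. Of all genes, 1.07% had a lower difference than H2-D1 and 1.73% a lower one than H2-T23, against 18.0% for Tap1, 48.8% for H2-Q10 and 53.7% for B2m. Ranked by −log10 q in place of the fold, the difference was −66.5 percentile points at H2-D1 and −43.5 at H2-T23.

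**Figure D3:**
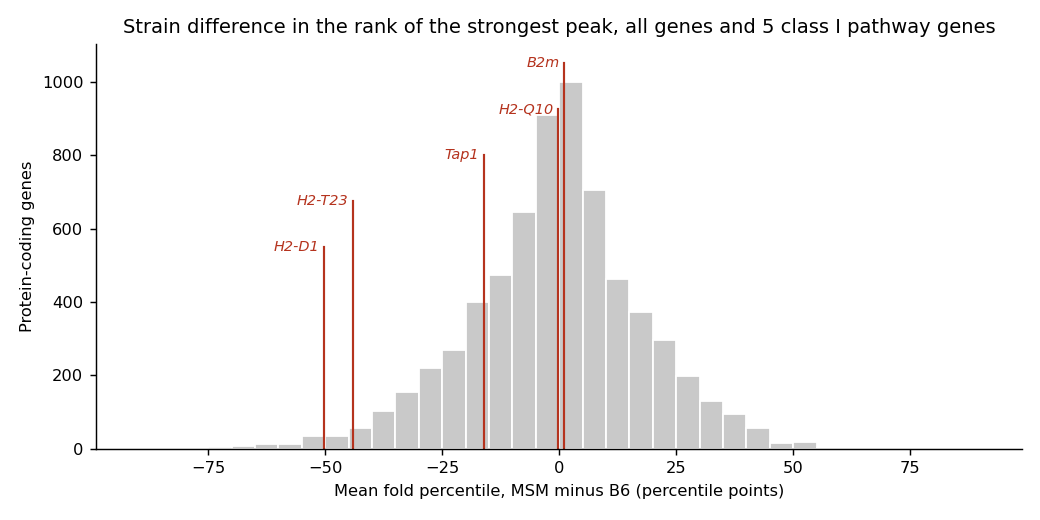
Distribution over 6706 protein-coding genes of the MSM minus B6 difference in the mean fold percentile of the strongest peak (x axis, percentile points; y axis, genes). Red lines mark the 5 class I pathway genes with a peak in all 4 parental libraries, with H2-D1 at −50.3 and H2-T23 at −44.1 in the lower tail and B2m at 1.08 near the middle.

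**Figure D4:**
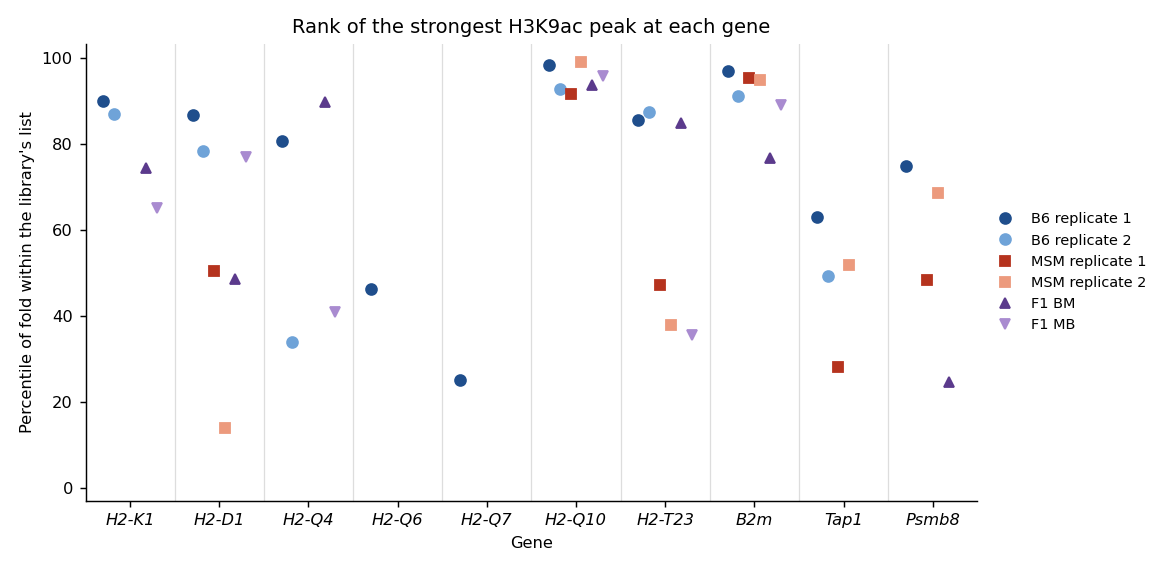
Percentile of the strongest peak's fold within its own list (y axis) for each gene, 1 point per library, with no point where a library had no peak. At H2-T23 the 2 B6 points (85.6 and 87.5) lie above the 2 MSM points (47.1 and 37.8), while at H2-Q10 and B2m all parental points are above 91.

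B2m encodes beta 2-microglobulin, the light chain that pairs with class I heavy chains. It lies at chr2:122147686-122153083 on the plus strand. Peaks covered 2362 and 1119 bp in B6, 2225 and 1757 bp in MSM, 2399 bp in F1 BM and 1470 bp in F1 MB. The folds were 14.0 and 7.41 in B6, 10.35 and 10.65 in MSM, 4.43 in F1 BM and 7.55 in F1 MB. Values of the strains overlapped, with a difference of 250.5 bp and a pooled SD within strains of 664 bp (two-sided exact permutation p = 1, n = 2 per strain).

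The B2m domain had the same build in most libraries. A main peak ran from the start to 1720 to 1921 bp behind it in B6 replicate 1, both MSM libraries and F1 BM, and was broken into 2 peaks in B6 replicate 2 and F1 MB. Its strongest summit was in an intron 217 to 275 bp behind the start in all 6 libraries. An upstream peak that ended 139 to 144 bp before the start was called in B6 replicate 1, MSM replicate 1 and F1 BM. The element letters in capitals in the printed B2m sequence, 139 to 130 bases before its RefSeq start, thus lie beside the inner edge of that peak, on the side of the start.

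Tap1 encodes one chain of the transporter that brings peptides into the endoplasmic reticulum. The gene lies at chr17:34187553-34197225 on the plus strand and shares its start region with Psmb9, an immunoproteasome subunit gene whose start is in the same window, so the peaks there cannot be given to one of these genes. Peaks covered 1776 and 498 bp in B6 and 899 and 551 bp in MSM, and neither hybrid had a peak in the window. The parental strains overlapped (difference −412 bp, pooled within-strain SD 662 bp, two-sided exact permutation p = 1, n = 2 per strain). The parental folds were low, 6.23 and 4.47 in B6 and 4.06 and 5.08 in MSM, at percentiles 28.2 to 62.9 of their lists. Of the 5 genes of the set with a peak in all 4 parental libraries, Tap1 was the 1 with none in either hybrid, against 0.746% of 6706 such genes.

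Psmb8 encodes the immunoproteasome subunit that replaces a constitutive catalytic subunit of the proteasome. The gene lies at chr17:34197721-34201454 on the plus strand. Peaks covered 689 and 0 bp in B6, 269 and 565 bp in MSM, 234 bp in F1 BM and 0 bp in F1 MB, so the strains overlapped (difference 72.5 bp, pooled within-strain SD 375 bp, two-sided exact permutation p = 1, n = 2 per strain). The libraries without a Psmb8 peak, B6 replicate 2 and F1 MB, were also those without a start peak at any of the 6 endothelial markers and those with the shortest lists. The part of these in the result was not tested. The strongest summit was 784 to 851 bp behind the start in the 4 libraries with a peak.

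Against the parental range of covered length, F1 BM was inside it at 8 of the 10 genes, below it at 1 (Tap1) and above it at 1 (B2m). Over the 11446 genes with a window peak in a parental library, the shares were 81.7% inside, 4.94% below and 13.3% above. F1 MB was inside it at 7 and below it at 3, H2-Q10, H2-T23 and Tap1, against 80.1% inside, 18.7% below and 1.25% above over the same genes. F1 MB has one of the shortest lists, and nothing particular to these genes is read from its count. Reads were not assigned to an allele in the peak lists, so a hybrid peak at H2-K1 or H2-Q4 cannot be given to the B6 or the MSM chromosome.

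The similarity of the copies was measured in the B6 reference with words of 50 bases, the length of 1 read. The measure was the share of words that occur elsewhere in the genome on either strand. Only exact matches were counted, so words that differ by 1 base between copies were taken as unique. Read pairs were not considered. In the stretch 1 kb either side of the start this share was 58.6% for H2-Q6, 53.3% for H2-Q7 and 46.1% for H2-T23. It was 11.3% for H2-K1, 7.58% for H2-Q4, 3.28% for H2-D1, 2.41% for B2m, 0.154% for H2-Q10 and 0% for Tap1 and Psmb8. Among all genes the median was 0% and 13.3% of genes were above 10%. H2-Q6 and H2-Q7 shared 38.3% of their start words with each other, the highest share of any pair of the 10 genes.

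Under the peaks of any library, the repeated share at the genes that differed in covered length was 1.65% at H2-K1 and 3.31% at H2-Q4. It was 11.5% at H2-D1, 35.1% at H2-T23 and 30.4% at H2-Q10. These shares describe exact repeats in the B6 sequence and do not measure copies that differ by a few bases. How far the MSM haplotype differs from the B6 sequence at these genes was not analysed here. The part of lost MSM reads in the lower MSM values at H2-K1, H2-Q4, H2-D1 and H2-T23 was therefore not tested.

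**Figure D5:**
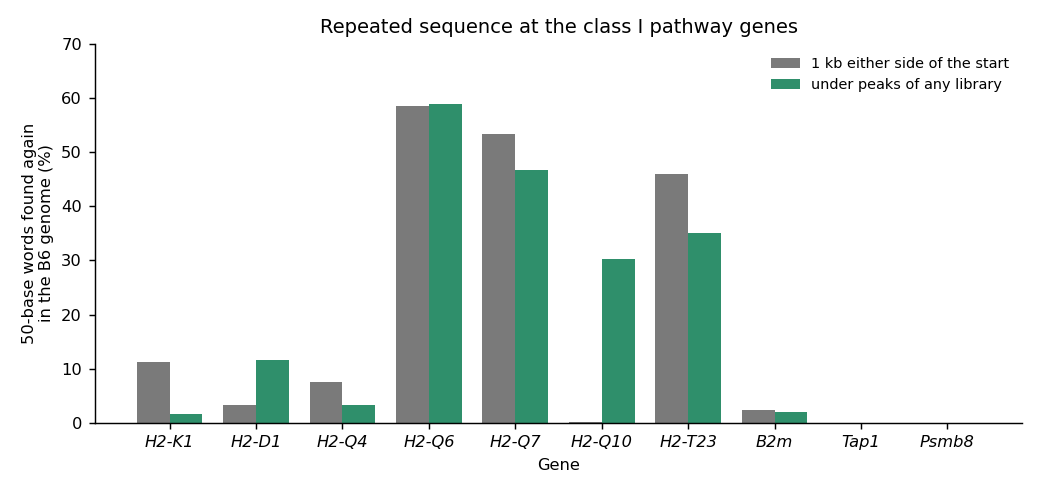
Share of 50-base words that occur again in the B6 reference genome (y axis, %), 1 kb either side of the start (grey) and under the peaks of any library (green), for each gene. H2-Q6 (58.6% and 59.0%) is highest, while Tap1 and Psmb8 are at 0% in both.

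The rest of the pathway was read from lists of named genes. The 17 other class I heavy chain genes included T and M region genes of H2. Of these 17, 3 had a start peak in any library, beside 45.8% of all genes, and 0 in all 6, beside 23.6%. The same 3 had a window peak in a parental library, and H2-T22, of the T region, was the 1 of these 3, beside 11.6% of all genes, with both B6 lengths, 950 and 691 bp, above both MSM lengths, 288 and 0 bp. H2-T24 and H2-M3, which presents formylated peptides, overlapped between strains. H2-M3 was covered over 389 bp in B6 replicate 1 and 535 bp in F1 BM and had no peak elsewhere.

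Of 16 other peptide supply and loading genes, 11 had a start peak in all 6 libraries, beside 23.6% of all genes. Covered length was higher in both B6 libraries at 3, Psme1, Psme2 and Canx, and in both MSM libraries at 0. Psme1 and Psme2 encode the proteasome activator PA28. Psme1 was covered over 1031 and 899 bp in B6, 447 and 261 bp in MSM, 570 bp in F1 BM and 259 bp in F1 MB. Its strongest folds were 17.27 and 10.26 in B6, 4.42 and 3.90 in MSM, 5.45 in F1 BM and 4.56 in F1 MB, so both B6 folds were above both MSM folds as well. Psme2 followed with 1739 and 1117 bp in B6, 612 and 443 bp in MSM, 726 bp in F1 BM and 255 bp in F1 MB, but its folds overlapped between strains, with 9.72 and 4.43 in B6 and 5.12 and 3.68 in MSM. Canx, the chaperone calnexin, was covered over 1721 and 1395 bp in B6 and 1205 and 1304 bp in MSM. Its folds overlapped too, with 11.7 and 6.92 in B6 and 9.098 and 10.399 in MSM. Psmb10, another immunoproteasome subunit gene, had 2216 to 3474 bp in the 4 parental libraries with overlapping strains. Tap2 shares its strongest peak with Psmb8, whose window it borders, in every library in which Psmb8 had one.

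Of 18 regulators of class I transcription, 15 had a start peak in all 6 libraries, again beside 23.6% of all genes. They include Nlrc5, the class I transactivator, which was covered over 1586 and 737 bp in B6, 958 and 735 bp in MSM, 1016 bp in F1 BM and 732 bp in F1 MB. Covered length was higher in both B6 libraries at 2, the interferon gamma receptor gene Ifngr1 (1013 and 681 bp against 483 and 521 bp) and the NF-kB subunit gene Nfkb1 (1390 and 1376 bp against 328 and 655 bp), and in both MSM libraries at 0. The folds of both overlapped between strains, with 6.39 and 2.91 in B6 and 3.55 and 3.66 in MSM at Ifngr1, and 8.77 and 4.72 in B6 and 4.33 and 5.48 in MSM at Nfkb1. The 3 of 16 and 2 of 18 genes higher in B6 stand beside 11.6% of all genes, and the 0 higher in MSM in each list beside 4.97%.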

How the data were processed

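H3K9ac ChIP-seq had been run on adult livers as 50-bp paired reads. The authors trimmed adaptors with Trim Galore and mapped read pairs to mm10 with Bowtie 2. The submitters' processing notes also list HISAT2, SAMtools and MACS2, with no version. The peak caller's threshold and its use of input were not given in the sources used here. The lowest −log10 q was 1.30 to 1.35. Each deposited list was called on 1 library.

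The deposited lists give for each peak a fold enrichment (a linear ratio to the caller's background) and the −log10 of its p-value and of its q-value. The deposited score column was not used. Groups and replicate numbers came from the sample titles.

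Gene windows, starts and exons came from GENCODE M21, leaving out genes of the mitochondrial genome. Covered length is the bp of a gene window under peaks. The fold percentile is the rank of a gene's strongest peak within its own list. A start peak overlaps 1 kb either side of the start. Strain differences were tested with an exact permutation test, two-sided, in which the 4 parental libraries can be assigned in 6 ways. F1 values, with 1 library per cross, were not tested. A strain order was counted when both libraries of one strain exceeded both of the other, and set beside the share over all genes tested. All 10 genes were named. The genes and lists were chosen with earlier results of these data known. Promoters and the genome sequence were from RefSeq GRCm38.p6. Peak and window functions were tested on simulated data. Alternatives were equal list lengths, a −log10 q of at least 5, other windows and overlaps, each parental library left out, and the replicate number as a block. Python 3.11.15, numpy 2.4.6, scipy 1.17.1, numba 0.67.0, Biopython 1.88 and matplotlib 3.10.9 were used.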

Additional observations from a re-analysis of the deposited data

How the results depend on the processing

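The count of genes with covered length higher in both B6 libraries was 2 to 3 when lists were limited to the same number of peaks or covered length, to a −log10 q of at least 5, or when the window or the overlap was changed. Among all genes the shares higher in B6 and in MSM were 19.3% and 8.87% with the same number of peaks and 15.6% and 17.5% at the same covered length, against 11.6% and 4.97% with the whole lists. Leaving out 1 parental library gave 2 to 10, with 10 without B6 replicate 2. The count higher in both MSM libraries was 0 under all of these but without B6 replicate 1, where it was 5, and so ranged from 0 to 5. The count with a start peak in all 6 libraries was 4 and went to 2 at the same covered length, with 3 or 4 under the other settings.

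With 1 parental library left out, the covered length difference crossed 0 at 5 genes. It ran from −311.5 to 221.5 bp at H2-T23 (221.5 without B6 replicate 1, 56.5 without MSM replicate 1), from −272 to 417 bp at Psmb8 (−272 without B6 replicate 2, −75.5 without MSM replicate 2), from −1049 to 323 bp at H2-Q10 and from −1051 to 227 bp at Tap1 (both highest without B6 replicate 1), and from −371 to 872 bp at B2m (−371 without B6 replicate 2). It also reversed at H2-T23 with the same number of peaks (88 bp) and at Psmb8 at the stricter q (−38 bp). The fold percentile difference ran from −3.92 to 3.46 at H2-Q10 (2.56 without B6 replicate 1, 3.46 without MSM replicate 1) and from −1.77 to 3.94 at B2m (−1.77 without B6 replicate 2), and was −0.951 at B2m by −log10 q. With lists shortened to the same number of peaks or covered length, an alternative chosen after seeing the data, no fold percentile difference could be given at H2-D1 or Tap1, nor at H2-T23 for the same covered length, because 1 or more parental lists kept no peak there. At H2-T23 it was −61.7 with the same number of peaks. It reversed at none of H2-T23, H2-Q10 and B2m. None of the reversed values was a difference called in the report, and the cause was not tested. At H2-D1 the fold percentile difference ran from −68.5 to −32.2. The genes higher in both B6 libraries were H2-K1, H2-D1 and H2-Q4 with the same number of peaks or the stricter q, H2-K1, H2-D1 and H2-T23 at the same covered length, and H2-K1, H2-Q4 and H2-T23 in the gene body only. At H2-K1 the covered length difference stayed between −887 and −463 bp.

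The replicate numbers pair the samples by number only (r = 0.0832 between deviations of same-numbered libraries). With the replicate block, the paired sign-flip test gave an exact p = 0.5, the smallest it allows, at H2-K1 and H2-Q4, and the count higher in B6 was 2. The depth of sequencing was not used here, and no limit of detection was computed for a missing peak.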

Other observations

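Class II genes encode products that present peptides taken up from outside and are typical of immune cells. Of 9 class II genes, 1 had a start peak in any library, H2-DMa, against 45.8% of all genes, and it had one in all 6 libraries, against 23.6%. H2-DMa was covered over 5054 and 3035 bp in B6, 3631 and 3646 bp in MSM, 4543 bp in F1 BM and 3788 bp in F1 MB, so the strains overlapped. H2-Aa, H2-Ab1 and H2-Eb1, which encode chains of the surface class II molecules, had no peak in the window in any library. Ciita, the class II transactivator, had 248 bp in B6 replicate 1 alone.

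Among 4 genes outside H2 whose products pair with beta 2-microglobulin, 3 had a start peak in all 6 libraries (beside 23.6% of all genes), Hfe, Cd1d1 and Fcgrt, and Mr1 had none in any. Hfe, a regulator of iron uptake in liver, was covered over 1387 and 1129 bp in B6, 706 and 763 bp in MSM, 1236 bp in F1 BM and 666 bp in F1 MB, with both B6 values above both MSM values, the 1 of 3 with this order (beside 11.6% of all genes). The folds of Hfe did not follow this order, with 8.67 and 6.18 in B6 and 7.85 and 9.88 in MSM.

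The other protein-coding genes of the H2 complex were compared after the values of the class I genes had been seen. Between the ends of H2-K1 and H2-T23, over 2.04 Mb of chromosome 17, 110 further genes had their start, and 67 of them had a window peak in a parental library. Covered length was higher in both B6 libraries at 5 of the 67 (7.46%, beside 11.6% of all genes) and in both MSM libraries at 1 (beside 4.97%). A start peak in both B6 libraries and neither MSM library was seen at 1 of 58 genes with a start peak in a parent, Prrt1 (beside 1.86% of all such genes), and the opposite at 0 (beside 0.644%). The fold percentile was higher in both B6 libraries at 3 of 39 and in both MSM libraries at 2, beside 18.4% and 14.3% of all genes.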
